A study of Homo sapiens with 9 samples.

Results

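Signalling by transforming growth factor β (TGFβ) was described here through 10 genes: the ligands *TGFB1*, *TGFB2* and *TGFB3*, the receptors *TGFBR1*, *TGFBR2* and *TGFBR3*, and the intracellular mediators *SMAD2*, *SMAD3*, *SMAD4* and *SMAD7*. They were chosen by symbol from the 60708 genes counted, and each of the 10 matched exactly 1 gene. Their counts came from 9 RNA-sequencing libraries of untreated cells described as MDA-MB-231, an established human triple-negative breast cancer line of the basal-B type. In 3 libraries, labelled WT-1 to WT-3, *SNAI1* was not targeted. The other libraries were labelled CS16 (3) and CS19 (3), and each name stands for a single clone selected after CRISPR/Cas9 and repair-template plasmids were used against *SNAI1*, the gene of a repressor that drives epithelial-mesenchymal transition. Both clones together are called *SNAI1*-KO (6 libraries). No library came from cells given TGFβ, and the 3 libraries of a clone are replicates of that clone and not of the knockout.

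TGFβ ligands are secreted as latent dimers, and once released they bind the type II receptor *TGFBR2*, which phosphorylates the type I receptor *TGFBR1*. The type III receptor *TGFBR3* (betaglycan) presents ligand, TGFβ2 above all. Activated *TGFBR1* phosphorylates *SMAD2* and *SMAD3*, which join *SMAD4* and enter the nucleus to regulate transcription, while *SMAD7* blocks the receptor and is itself a target of the pathway. In breast carcinoma cells the pathway is known both for growth arrest and for inducing *SNAI1* and a mesenchymal state.

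Several measurements set limits on every comparison with WT. Library totals ranged from 19527195 to 28627777 counted read pairs. The targeted gene *SNAI1* was present at 16, 38 and 21 counts in the WT libraries, 26, 40 and 49 in CS16 and 57, 94 and 94 in CS19, so its RNA was not lower in *SNAI1*-KO (log2 fold change 0.89, SE 0.42, adjusted p = 0.0838 by edgeR's quasi-likelihood test, and 1.40, adjusted p = 0.0146, without WT-2). Counts per gene do not show which exons were read. The neighbouring genes *CDKN2A*, *CDKN2B* and *MTAP* on the short arm of chromosome 9, which lie in a stretch that MDA-MB-231 is known to lack, had 0 counts in all 3 WT libraries and between 235 and 3137 counts in all 6 libraries labelled *SNAI1*-KO. These libraries therefore go against their labelled origin, and loss of *SNAI1* and any other difference in the origin of the cells cannot be told apart in a comparison with WT. The summed level of 10 basal-B markers was 7408 to 8038 CPM (read pairs per 1000000 counted, after TMM normalization) in WT and 532 to 589 over the libraries of both clones, and *CD44* lay at or under the floor of 3 counts in every library of both clones. Summed mammary luminal markers were 1456 to 2138 CPM in WT, 56.0 to 57.3 in CS16 and 82.5 to 98.3 in CS19. Of 7 luminal markers tested, 6 were lower and 1 higher in *SNAI1*-KO at an adjusted p below 0.05 (median log2 fold change -5.41). Of all 19631 genes tested, 32.6% were lower and 31.1% higher. *FOXA1* lay at or under the floor in WT alone, *KRT19* and *TFF1* in the clones alone, and *AGR2* and *ELF3* in CS16 alone. The 10 nephric markers summed to 34.7 to 68.5 CPM in WT and 38.9 to 49.5 in the clones, but single markers differed in both directions. Of 7 tested, 5 were higher and 2 lower in *SNAI1*-KO (median log2 fold change 3.58). *PAX2*, *LHX1*, *SALL1*, *GDNF* and *RET* lay at or under the floor in WT alone, and *PAX8* and *OSR1* in the clones alone. A marker at the floor in WT, or in both clones, can pass the filter on low counts only through the other side. The counts and medians of the luminal and nephric markers tested thus follow in part from that filter. The 10 haematopoietic markers summed to 2.83 to 3.87 CPM over all libraries. The part of these marker differences in the results below was not tested.

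WT-2 stood apart from the other WT libraries. Its log2(CPM + 1) values had Pearson correlations across genes of 0.952 with WT-1 and 0.948 with WT-3, which correlated with each other at 0.995. Values without WT-2 are therefore given beside many of the results below. The part of this library in the results for the 10 genes is described after the SMADs.

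The sequences just upstream of the 3 ligand genes are shown because the ligands did not move together: *TGFB1* and *TGFB2* were lower in *SNAI1*-KO and *TGFB3* was higher. Each is the 250 bases before the gene's start, from RefSeq on GRCh38.p14, read 5′ to 3′ on the gene's strand, at chr19:41353923-41354172 (minus strand) for *TGFB1*, chr1:218345086-218345335 (plus strand) for *TGFB2* and chr14:75983012-75983261 (minus strand) for *TGFB3*. Capitals mark GC boxes (GGGCGG or CCGCCC) in *TGFB1* and SMAD boxes (CAGAC or GTCTG) in *TGFB2* and *TGFB3*.
TGFB1: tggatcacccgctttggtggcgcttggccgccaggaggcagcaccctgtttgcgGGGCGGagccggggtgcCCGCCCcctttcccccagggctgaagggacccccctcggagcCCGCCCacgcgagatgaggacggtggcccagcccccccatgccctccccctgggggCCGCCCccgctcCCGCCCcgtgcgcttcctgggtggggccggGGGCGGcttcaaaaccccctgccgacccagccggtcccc
TGFB2: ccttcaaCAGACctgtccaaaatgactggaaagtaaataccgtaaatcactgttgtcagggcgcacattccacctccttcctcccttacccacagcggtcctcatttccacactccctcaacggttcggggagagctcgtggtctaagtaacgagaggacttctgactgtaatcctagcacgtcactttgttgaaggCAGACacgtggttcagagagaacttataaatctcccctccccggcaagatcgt
TGFB3: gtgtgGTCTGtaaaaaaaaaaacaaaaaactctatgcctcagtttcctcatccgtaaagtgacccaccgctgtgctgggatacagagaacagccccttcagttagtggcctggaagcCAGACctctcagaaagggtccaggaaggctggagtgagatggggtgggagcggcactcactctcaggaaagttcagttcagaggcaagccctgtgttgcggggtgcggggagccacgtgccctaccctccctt

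The *TGFB1* window held 6 GC boxes, no SMAD box and 76.8% G and C. The *TGFB2* and *TGFB3* windows each held 2 SMAD boxes and no GC box, with 50.4% and 54.8% G and C. The E-box that *SNAI1* is known to bind (CACCTG or CAGGTG) was not among the letters of these 3 windows. Over the windows of all 10 genes, taken as the listed window nearest to the gene's start in the files (20184 bases from it for *TGFBR3*, 1839 for *SMAD3* and 1819 for *SMAD4*, and at most 274 for the others), an E-box was found in 1 (*TGFBR1*), a SMAD box in 4 (*TGFB2*, *TGFB3*, *TGFBR1* and *SMAD7*) and a GC box in 6 (*TGFB1*, *TGFBR2*, *TGFBR3*, *SMAD2*, *SMAD3* and *SMAD4*). The same motifs, sought on both strands and none of them part of another, were present in 17.5%, 38% and 42.6% of 35116 such windows of all genes. A match describes letters and not a bound site.

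All 10 genes were expressed above the filter on low counts in every comparison. In *SNAI1*-KO against WT, 6 of the 10 were lower (*TGFB1*, *TGFB2*, *TGFBR1*, *TGFBR2*, *SMAD2* and *SMAD3*) and 1 was higher (*TGFB3*) at an adjusted p below 0.05, while 32.6% of the 19631 genes tested were lower and 31.1% higher. When a change of 2 or more on the log2 scale was also required, the cut-off of the study, 4 of the 10 were lower (*TGFB1*, *TGFB2*, *TGFBR2* and *SMAD3*) and 0 higher, against 14.3% and 12.6% of all genes. The median log2 fold change of the 10 genes was -0.72, and that of all genes tested was -0.004. Without WT-2, 7 of the 10 were lower (*SMAD4* in addition) and 1 higher, and 3 passed the fold cut-off, since *TGFB1* no longer did. In these bulk libraries, fewer cells with a transcript and less of it per cell cannot be told apart. The basal-B markers fell with these genes, 10 of 10 at an adjusted p below 0.05, and their part in the result was not tested.

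**Figure D1:**
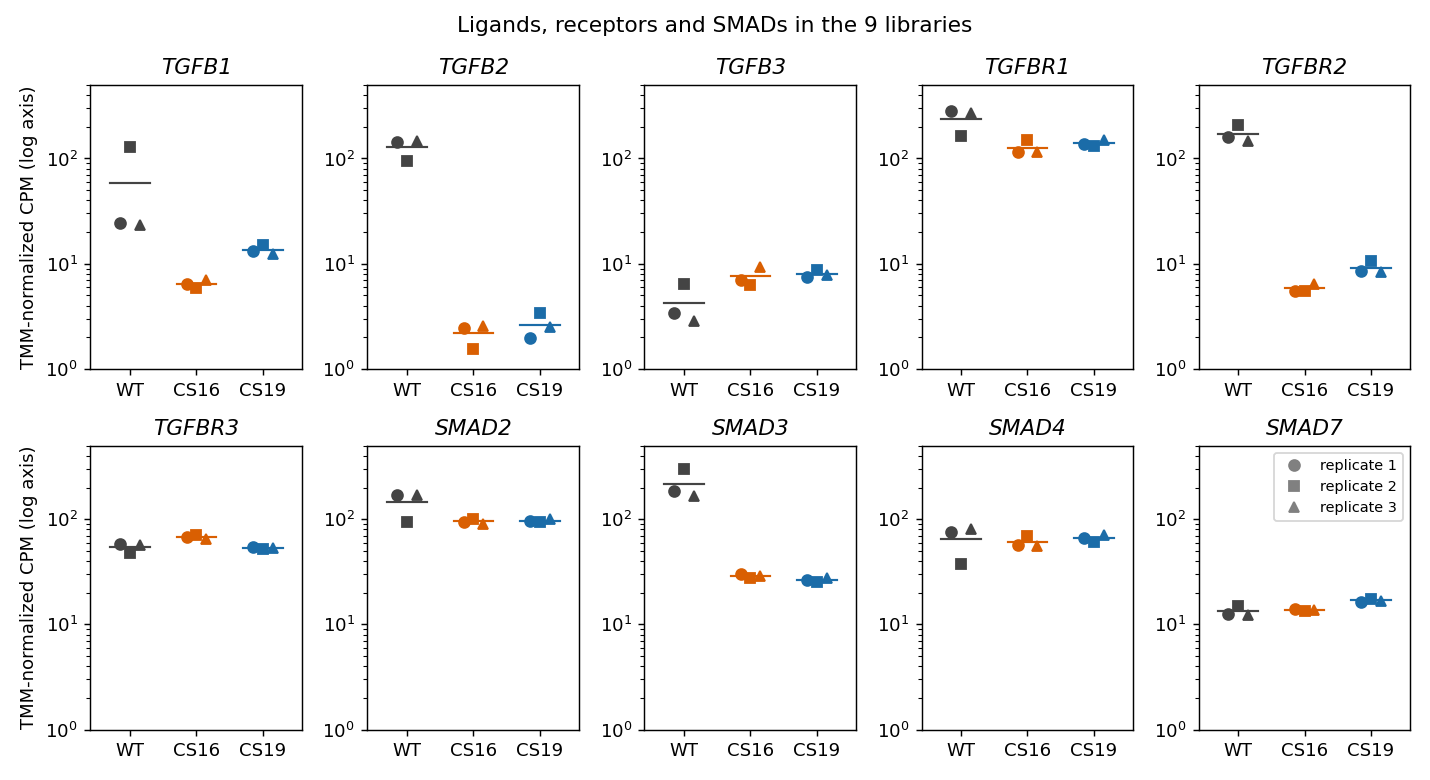
TMM-normalized CPM (logarithmic axis) of the 10 genes in each library; the symbol gives the replicate number, the colour the group and the horizontal line the group's mean (n = 3). *TGFB2*, *TGFBR2* and *SMAD3* lay in every *SNAI1*-KO library far below every WT library, whereas *SMAD4* overlapped between the groups.

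*TGFB2* changed most of the 10 genes. It encodes the ligand that needs *TGFBR3* for high-affinity binding and lies at chr1:218345336-218444619 on the plus strand (GRCh38). It was measured at 144, 95.4 and 148 CPM in WT-1, WT-2 and WT-3. The CS16 libraries held 2.46, 1.53 and 2.55 CPM and the CS19 libraries 1.96, 3.39 and 2.52. All 6 *SNAI1*-KO libraries lay far below the lowest WT library, and the clones overlapped. The mean was 129 ± 29.1 CPM in WT (SD, n = 3) and 2.40 ± 0.628 CPM in *SNAI1*-KO (SD, n = 6), which is 53.5-fold lower (log2 fold change -5.74, SE 0.24, adjusted p = 3.09e-09). Without WT-2 the log2 fold change was -5.92. Exons of *TGFB2* share 129 bases with *TGFB2-AS1* on the opposite strand, which had 2 to 18 counts per library, and strand was not used in the counting. They share 1371 bases with *TGFB2*-OT1 on the same strand, which had 0 counts in every library, so that 24.8% of the exon bases are shared. Pairs over both genes were not counted, which can lower the level of *TGFB2* per kilobase and its share of the ligands in all groups.

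*TGFB1* encodes the most widely expressed of the ligands, and lies at chr19:41301587-41353922 on the minus strand. Its levels were 24.2, 129 and 23.4 CPM in WT-1, WT-2 and WT-3, 6.48, 5.83 and 6.97 in CS16, and 13.1, 15.0 and 12.4 in CS19. Both clones lay below all WT libraries, but WT-2 was 5.43 times the mean of the other WT libraries. *TGFB1* was 5.90-fold lower in *SNAI1*-KO (log2 fold change -2.56, SE 0.51, adjusted p = 0.000983), and the log2 fold change was -1.26 (SE 0.32, adjusted p = 0.00443) without WT-2. Its direction thus did not rest on WT-2, whereas its size did. *TGFB1* shares 215 exon bases with *HNRNPUL1* on the opposite strand, a gene that was also highest in WT-2 of all 9 libraries (11377 counts against 3511 to 5455).

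*TGFB3*, the ligand with the lowest level in WT, lies at chr14:75958097-75983011 on the minus strand. It had 3.41, 6.41 and 2.88 CPM in WT-1, WT-2 and WT-3, 7.07, 6.31 and 9.36 in CS16 and 7.51, 8.77 and 7.74 in CS19. WT-2 overlapped with the lowest CS16 library, and the other WT libraries lay below all *SNAI1*-KO libraries. *TGFB3* was 1.85-fold higher in *SNAI1*-KO (log2 fold change 0.88, SE 0.27, adjusted p = 0.0128). The log2 fold change was 1.30 (adjusted p = 0.000152) without WT-2 and 0.75 (adjusted p = 0.0559) without WT-1. Exons of *TGFB3* share 163 bases with *TGFB3-AS1* on the opposite strand, which had 0 to 6 counts per library.

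Levels of different genes were compared per exon length, as CPM per kilobase of the exons in the files. The summed ligand level was 31.8, 56.6 and 32.2 CPM per kilobase in WT-1, WT-2 and WT-3, 3.25 to 4.35 in CS16 and 5.71 to 6.84 in CS19. *TGFB2* made up 74.7% of it in WT-1 and 75.9% in WT-3, but 27.9% in WT-2, where *TGFB1* made up 70.0%. In the clones *TGFB2* made up 9.44% ± 1.54 (SD, n = 3) in CS16 and 7.04% ± 1.31 (SD, n = 3) in CS19. The share of *TGFB3* was 1.71 to 2.17% in the WT libraries including WT-2, 38.2% ± 2.67 (SD, n = 3) in CS16 and 25.2% ± 0.732 (SD, n = 3) in CS19. *TGFB1* made up 52.4% ± 3.01 in CS16 and 67.8% ± 1.44 in CS19 (SD, n = 3 each). It was thus the largest share in both clones by exon length, but by the length of the canonical transcript *TGFB3* (48.1%) exceeded *TGFB1* (44.2%) in CS16-3, with means of 44.9% and 47.6% in CS16.

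**Figure D2:**
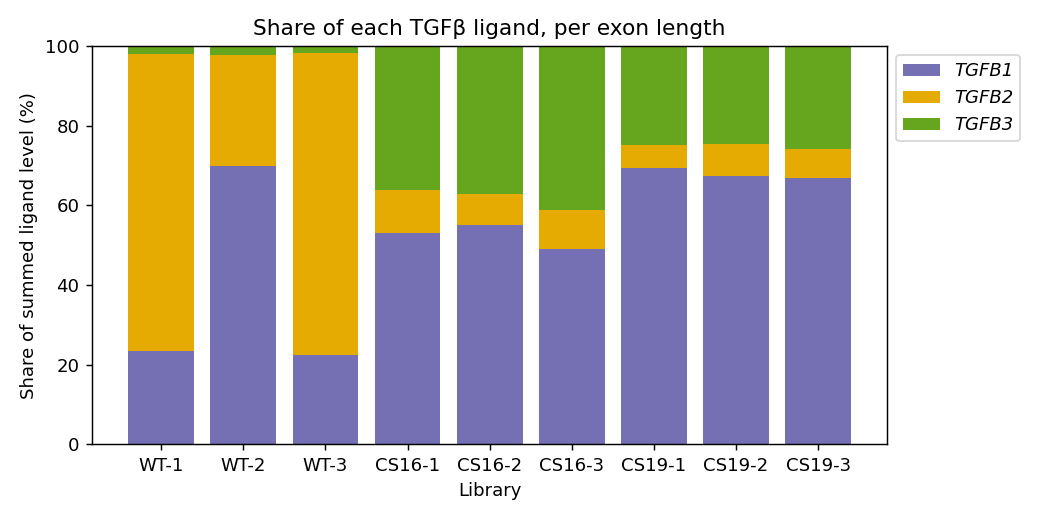
Share (%) of the summed ligand level, in CPM per kilobase of exons, that each of the 3 ligand genes made up in each library, stacked from 0 to 100. *TGFB2* was the largest share in WT-1 and WT-3, *TGFB1* in WT-2 and in all 6 *SNAI1*-KO libraries (with canonical transcript lengths *TGFB3* was larger in CS16-3), and *TGFB3* stayed at or under 2.17% in WT.

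Of the receptors, *TGFBR2* fell most. The gene of the ligand-binding type II kinase lies at chr3:30606601-30694142 on the plus strand, and its exons overlap no other gene. It had 162, 209 and 148 CPM in WT-1, WT-2 and WT-3, 5.50, 5.50 and 6.46 in CS16 and 8.51, 10.7 and 8.26 in CS19. The groups were fully separated, also CS16 from CS19. *TGFBR2* was 23.0-fold lower in *SNAI1*-KO (172.6 ± 32.0 CPM, SD, n = 3, in WT, and 7.49 ± 2.04, SD, n = 6, in *SNAI1*-KO), with a log2 fold change of -4.53 (SE 0.22, adjusted p = 1.28e-08) and of -4.37 without WT-2.

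*TGFBR1*, the gene of the type I kinase that phosphorylates *SMAD2* and *SMAD3*, lies at chr9:99104038-99154192 on the plus strand. It had 279.6, 162 and 268 CPM in WT-1, WT-2 and WT-3, 114.9, 148.8 and 114.05 in CS16 and 137, 131 and 150.1 in CS19. All 6 *SNAI1*-KO libraries lay below WT-2, the lowest WT library, in CS16-2 and CS19-3 by little. *TGFBR1* was 1.78-fold lower in *SNAI1*-KO (log2 fold change -0.84, SE 0.18, adjusted p = 0.00166), and the log2 fold change was -1.05 without WT-2.

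*TGFBR3*, which encodes the co-receptor betaglycan, lies at chr1:91680343-91906335 on the minus strand. It had 57.7, 48.1 and 57.1 CPM in WT-1, WT-2 and WT-3, 68.5, 71.4 and 65.3 in CS16 and 54.1, 51.8 and 52.8 in CS19. CS16 lay above all WT libraries, and CS19 lay within their range. The log2 fold change of *SNAI1*-KO against WT was 0.16, with a 95% interval from -0.18 to 0.50 (adjusted p = 0.386), so that no difference was detected.

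The receptors thus stood in another proportion to each other. Per exon length, *TGFBR2* was 0.576, 1.28 and 0.548 times *TGFBR1* in WT-1, WT-2 and WT-3, and 0.0469 ± 0.00981 times in CS16 and 0.0660 ± 0.0135 times in CS19 (SD, n = 3 each). *TGFBR3* was 0.184 to 0.309 times *TGFBR2* in WT, 8.08 to 10.4 times in CS16 and 3.87 to 5.10 times in CS19. No library of one group reached the range of another in the latter ratio.

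Among the SMADs, *SMAD3* fell most. It encodes the receptor-activated SMAD that binds DNA directly, and lies at chr15:67063763-67195173 on the plus strand. It had 187, 299.9 and 167 CPM in WT-1, WT-2 and WT-3, 30.3, 27.9 and 28.8 in CS16 and 26.6, 25.2 and 27.3 in CS19. Every *SNAI1*-KO library lay below every WT library. *SMAD3* was 7.87-fold lower in *SNAI1*-KO (218 ± 71.6 CPM, SD, n = 3, in WT, and 27.7 ± 1.79, SD, n = 6), with a log2 fold change of -2.98 (SE 0.17, adjusted p = 4.57e-08) and of -2.68 without WT-2. Its exons share 182 bases with an unnamed gene on the opposite strand that had 4 to 19 counts per library.

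*SMAD2*, the other receptor-activated SMAD of this pathway, lies at chr18:47808957-47931146 on the minus strand. It had 169, 95.1 and 171 CPM in WT-1, WT-2 and WT-3, and 90.5 to 101 CPM over the 6 *SNAI1*-KO libraries. WT-2 lay within the range of *SNAI1*-KO, and WT-1 and WT-3 lay above it. *SMAD2* was 1.52-fold lower in *SNAI1*-KO (log2 fold change -0.60, SE 0.17, adjusted p = 0.0102). The log2 fold change was -0.83 (adjusted p = 2.67e-06) without WT-2, -0.48 (adjusted p = 0.0586) without WT-1 and -0.44 (adjusted p = 0.0669) without WT-3.

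*SMAD4*, the common partner of the receptor-activated SMADs, lies at chr18:51028394-51085045 on the plus strand. It had 75.7, 37.8 and 80.4 CPM in WT-1, WT-2 and WT-3, 55.5 to 69.7 in CS16 and 60.4 to 71.1 in CS19. The *SNAI1*-KO libraries lay between WT-2 and the other WT libraries. The log2 fold change was -0.03, with a 95% interval from -0.50 to 0.44 (adjusted p = 0.920). Without WT-2 it was -0.30 (SE 0.11, adjusted p = 0.0309). Exons of *SMAD4* share 967 bases, 7.37% of the total, with an unnamed gene on the same strand that had 0 counts in every library. Pairs over both genes were not counted, which can lower the level of *SMAD4* in all groups.

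*SMAD7*, the inhibitory SMAD of the pathway, lies at chr18:48919853-48950965 on the minus strand. It had 12.5, 15.1 and 12.2 CPM in WT-1, WT-2 and WT-3, 14.1, 13.5 and 13.7 in CS16 and 16.5, 17.5 and 16.7 in CS19. CS16 lay within the range of WT, and CS19 lay above it. The log2 fold change of *SNAI1*-KO against WT was 0.21, with a 95% interval from -0.14 to 0.56 (adjusted p = 0.276), and 0.31 (adjusted p = 0.0735) without WT-2.

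The proportions of the SMADs changed with the fall of *SMAD3*. Per exon length, *SMAD3* was 4.02, 11.5 and 3.56 times *SMAD2* in WT-1, WT-2 and WT-3, 1.11 ± 0.0892 times in CS16 and 0.998 ± 0.0187 times in CS19 (SD, n = 3 each). These ratios rest on the length of *SMAD2*, with 36426 bases of exons (34626 in its canonical transcript), against 9981 (6464) for *SMAD3*. In CPM, not divided by length, WT-1, WT-2 and WT-3 had 169, 95.1 and 171 of *SMAD2* and 187, 299.9 and 167 of *SMAD3*. The mean CPM of *SMAD2* and *SMAD3* were 95.3 and 29.0 in CS16 and 96.5 and 26.4 in CS19. Per exon length, *SMAD7* was 0.127 to 0.185 times *SMAD3* in WT, 1.18 to 1.23 times in CS16 and 1.55 to 1.76 times in CS19. In the clones the inhibitory SMAD was thus present at a level like that of *SMAD3*, which in WT exceeded it several fold in every library.

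**Figure D3:**
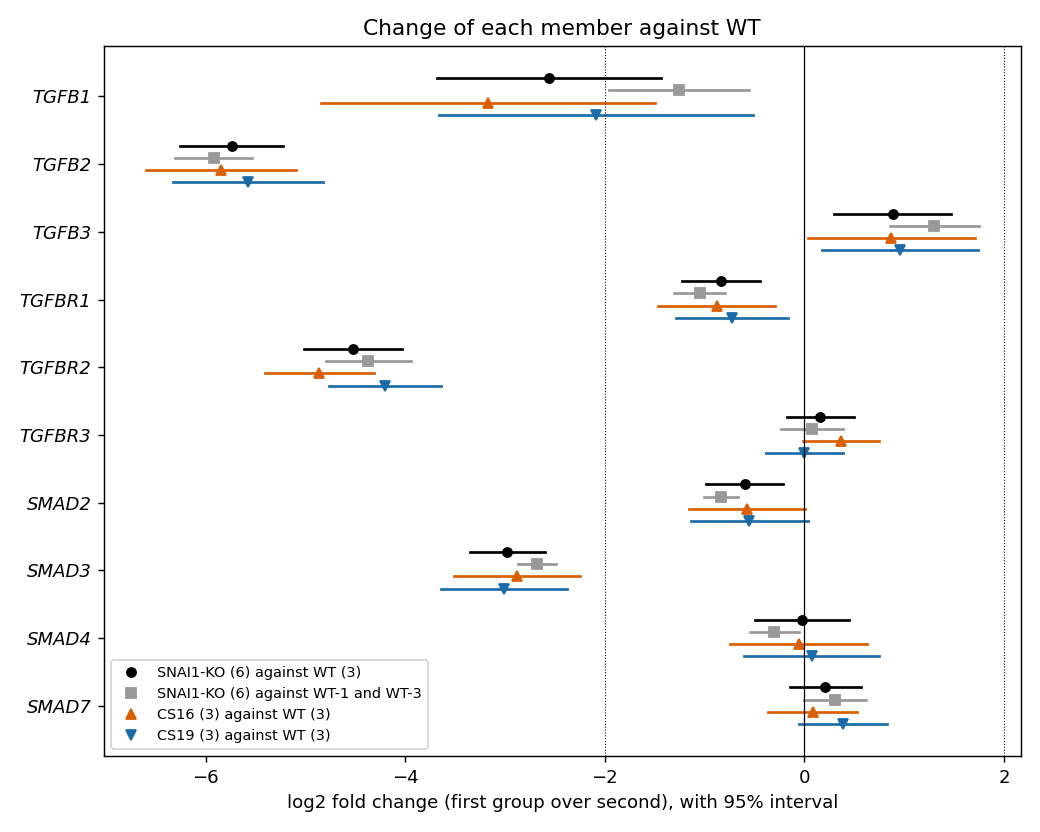
Log2 fold changes of the 10 genes (points) with 95% intervals (lines) for *SNAI1*-KO against WT, the same without WT-2, and each clone against WT; dotted lines mark a log2 fold change of 2 in size. *TGFB2*, *TGFBR2* and *SMAD3* lay beyond -2 in all 4 fits, and *TGFB1* moved from -2.56 to -1.26 when WT-2 was left out.

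The departure of WT-2 followed the base composition of the genes. Across 19622 genes, the difference of log2(CPM + 1) between WT-2 and the mean of WT-1 and WT-3 correlated with the share of G and C in the exons (Spearman 0.664), whereas the difference between WT-1 and WT-3 did so at -0.138. Genes are not independent replicates, and these values describe the libraries. When the genes were divided by their share of G and C into 10 bins, the median difference of WT-2 was -0.73 in the lowest bin and 0.92 in the highest. Among the 10 genes, *TGFB1* had the highest share of G and C (62.1%) and the highest difference (2.39). *SMAD4* (39.3% G and C) had the lowest difference (-1.03), and *SMAD2* (40.7%) and *TGFBR1* (38.8%) came next with -0.83 and -0.76. The sign of the difference was that of the genes of like composition in 9 of the 10, and *TGFBR2* (44.7% G and C, difference 0.43) was the exception. In size the difference exceeded the median of the gene's bin in all of these 9 but *SMAD7* (0.27 against 0.42). It was 2.39 against 0.92 in *TGFB1*, 0.84 against 0.20 in *TGFB3* and -1.03 against -0.54 in *SMAD4*. The part of base composition in the differences between *SNAI1*-KO and WT was not tested.

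**Figure D4:**
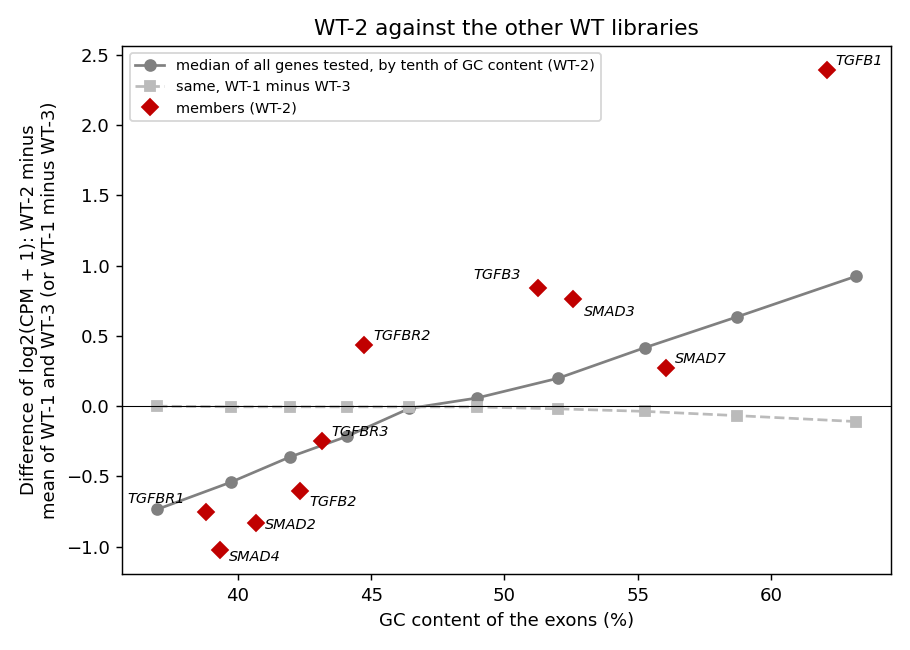
Difference of log2(CPM + 1) between WT-2 and the mean of WT-1 and WT-3 against the share of G and C in the exons (%), as medians of 10 bins of all genes tested (grey circles) and for the 10 genes (red diamonds); squares give the medians of WT-1 minus WT-3. The medians of WT-2 run from -0.73 to 0.92, and *TGFB1* lies highest at 2.39.

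Each clone was also compared with WT in a fit of its own. These comparisons share the WT libraries. In CS16, 5 of the 10 genes were lower (*TGFB1*, *TGFB2*, *TGFBR1*, *TGFBR2* and *SMAD3*) and 0 higher, where 28.6% of 18611 genes were lower and 27.0% higher. The fold cut-off left 4 lower and 0 higher, where 15.3% and 11.8% of all genes passed it. In CS19 the same 5 genes were lower and *TGFB3* was higher (log2 fold change 0.96, adjusted p = 0.0439), with 26.6% and 26.3% of 18935 genes, and 4 lower and 0 higher passed the fold cut-off, with 14.4% and 12.0% of all genes. *TGFB3* in CS16 had a log2 fold change of 0.87 (adjusted p = 0.0734 and unadjusted p = 0.0438 by edgeR's quasi-likelihood test), whereas its adjusted p by DESeq2 was 0.0368, so that the count of 0 depends on the tool.

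The log2 fold changes against WT in CS16 and CS19 were -5.85 and -5.57 for *TGFB2*, -4.86 and -4.20 for *TGFBR2*, -2.88 and -3.01 for *SMAD3*, -3.17 and -2.09 for *TGFB1*, and -0.88 and -0.72 for *TGFBR1*. *TGFB2*, *TGFBR2* and *SMAD3* kept their place beyond -2 on the log2 scale in each clone without WT-2. For *TGFB1* the log2 fold change without WT-2 was -1.89 in CS16 (adjusted p = 5.62e-09) and -0.80 in CS19 (adjusted p = 9.35e-06). Without CS19-1, CS19-2 or CS19-3 the adjusted p of *TGFB1* in CS19 was 0.0952, 0.0887 or 0.0925. The adjusted p of *TGFBR1* in CS16 (0.0197) rose to 0.0703, 0.0595, 0.0985 or 0.101 without WT-1, WT-3, CS16-1 or CS16-3. Its adjusted p in CS19 (0.0360) rose to between 0.101 and 0.138 when any one library other than WT-2 was left out, and that of *TGFB3* in CS19 likewise to between 0.0817 and 0.125. Leaving out WT-2 added *SMAD2* (-0.84 in CS16 and -0.80 in CS19) to the genes that were lower in both clones. It also added *SMAD4* (-0.36), *TGFB3* (1.27) and *TGFBR3* (0.25) in CS16 and *SMAD7* (0.47) in CS19.

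The comparison of CS16 with CS19 uses no WT library. It found 3 of the 10 genes lower in CS16 (12.7% of the 17538 genes tested) and 1 higher (14.7% of them). *TGFB1* was 2.10-fold lower in CS16 than in CS19 (log2 fold change -1.07, SE 0.12, adjusted p = 2.07e-05), with 3 of 3 libraries below all of CS19. *TGFBR2* was 1.57-fold lower (-0.65, SE 0.14, adjusted p = 0.00310) and *SMAD7* was 1.23-fold lower (-0.30, SE 0.09, adjusted p = 0.0218). *TGFBR3* was 1.29-fold higher (0.36, SE 0.07, adjusted p = 0.00137). For *SMAD7* the adjusted p lay between 0.0506 and 0.0794 when any one library other than CS16-2 was left out. Without CS16-2, *TGFBR1* was lower in CS16 as well (-0.28, adjusted p = 0.00754). In a fit that pools the spread of all 3 groups, WT-2 included, none of the 4 differences passed (adjusted p = 0.487, 0.103, 0.436 and 0.205).

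The other 6 genes did not pass the test between the clones. The 95% interval of the log2 fold change of CS16 against CS19 ran from -0.81 to 0.28 for *TGFB2*, from -0.40 to 0.25 for *TGFB3*, from -0.36 to 0.05 for *TGFBR1*, from -0.17 to 0.12 for *SMAD2*, from -0.04 to 0.31 for *SMAD3* and from -0.33 to 0.08 for *SMAD4*. A difference between the clones as large as that of either clone from WT in *TGFB2* or *SMAD3* lies outside these intervals.

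The order of the levels per exon length differed between WT and the clones. In WT it ran from *TGFBR1* (34.7 CPM per kilobase) through *TGFBR2* (25.2), *SMAD3* (21.8), *TGFB2* (21.3), *TGFB1* (18.1), *TGFBR3* (6.33), *SMAD4* (4.92), *SMAD2* (3.99) and *SMAD7* (3.37) to *TGFB3* (0.810). Neighbours in this order overlapped in their libraries except *TGFB1* with *TGFBR3* and *SMAD7* with *TGFB3*. In CS16, *TGFBR1* (18.5) was followed by *TGFBR3* (7.97), *SMAD4* (4.64), *SMAD7* (3.50), *SMAD3* (2.91), *SMAD2* (2.62), *TGFB1* (1.97), *TGFB3* (1.45), *TGFBR2* (0.849) and *TGFB2* (0.36), with an overlap of neighbours between *TGFB1* and *TGFB3* alone. CS19 had the same first 4 genes, then *TGFB1* (4.14), *SMAD2* (2.65), *SMAD3* (2.64), *TGFB3* (1.53), *TGFBR2* (1.34) and *TGFB2* (0.434). There *SMAD7* and *TGFB1*, *SMAD2* and *SMAD3*, and *TGFB3* and *TGFBR2* overlapped. *TGFB2* and *TGFBR2* thus went from the upper part of the order in WT to its lower end in both clones. The place of *SMAD2* in each order rests on its long exons (36426 bases, or 34626 in the canonical transcript). With the length of the canonical transcript in place of all exons, *TGFBR2* (38.1) and *TGFBR1* (36.4) changed places in WT, *SMAD7* was 0.920 times *SMAD3* in CS16 and 1.24 times in CS19, and *SMAD3* was 1.64 and 1.46 times *SMAD2*.

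Other genes of the pathway were taken from 5 lists with 59 genes, of which 56 passed the filter on low counts. In *SNAI1*-KO against WT, 33 were lower and 11 higher at an adjusted p below 0.05, and 19 were lower and 8 higher with the fold cut-off. Over all genes tested the shares were 32.6% and 31.1%, and 14.3% and 12.6% with the fold cut-off, so that 11 higher of 56 lay below the general share. Their median log2 fold change was -1.26, and without WT-2 it was -0.67, with 32 lower and 12 higher.

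Genes of ligand latency and activation were mostly lower, 9 of 12 tested against 2 higher (median -1.75, and -1.07 without WT-2). *THBS1*, whose product thrombospondin 1 is known to release active ligand, was at 2765 ± 702 CPM (SD, n = 3) in WT and at 1.83 ± 0.841 (SD, n = 6) in *SNAI1*-KO (log2 fold change -10.55, adjusted p = 1.93e-09). *FBN1*, which encodes the microfibril protein fibrillin 1, had a log2 fold change of -2.43 (adjusted p = 4.93e-07). *NRROS*, a protein that tethers latent ligand, had 77 to 227 counts in WT and 1 to 4 in *SNAI1*-KO. *FBN2*, encoding fibrillin 2, went the other way, with 0 to 4 counts in WT and 2552 to 4595 in *SNAI1*-KO. *LRRC32*, encoding the ligand tether GARP, had at most 2 counts in WT and 7 to 26 in *SNAI1*-KO, at least 4.61-fold higher, taking 3 counts per library as the floor.

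Of 14 modulators of the receptors, 8 were lower and 4 higher (median -0.78, and -0.49 without WT-2, with 7 lower and 4 higher). *PMEPA1*, an inhibitor of the pathway that it also induces, had a log2 fold change of -3.09, *SMURF2*, a ubiquitin ligase for receptors and SMADs, of -2.75, and *NEDD4L*, another such ligase, of -2.62. *CD109*, a co-receptor known to inhibit signalling, had 1 or 2 counts in WT and 127 to 230 in *SNAI1*-KO, at least 54.5-fold higher. *LDLRAD4*, an inhibitor of SMAD phosphorylation, had a log2 fold change of 4.71 from a low level in WT (5 to 7 counts), and *STRAP*, which binds receptors and *SMAD7*, of 1.13. Inhibitors were thus among the genes that rose and among those that fell.

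Of 9 nuclear partners tested, 4 were lower and 1 higher. Their median was -0.37, and it was 0.06 without WT-2, so that the list as a whole had no stable direction. The corepressor genes *TGIF1* and *SKI* had log2 fold changes of -1.96 and -2.52, and the transcriptional regulator *ZNF451* of -0.91. The value of *SKI* rested on WT-2 and was -0.91 without it. *SKIL*, a corepressor related to *SKI*, had a log2 fold change of 0.50 (adjusted p = 0.0385), and of 0.28 (adjusted p = 0.0600) without WT-2.

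Of the 4 other SMADs, 3 differed from *SMAD2* and *SMAD3* in direction. *SMAD9* (log2 fold change 4.03, adjusted p = 1.02e-08) and *SMAD1* (2.07, adjusted p = 8.14e-06), which transmit signals of bone morphogenetic proteins, and the inhibitory *SMAD6* (2.51, adjusted p = 9.27e-07) were higher in *SNAI1*-KO, and *SMAD5* did not pass the test (0.22, adjusted p = 0.515). Without WT-2 the log2 fold changes were 4.10 for *SMAD9*, 1.82 for *SMAD1*, 2.80 for *SMAD6* and -0.11 for *SMAD5*. *SMAD9* had 2.01 ± 0.206 CPM in WT (SD, n = 3) and 32.7 ± 3.78 CPM in *SNAI1*-KO (SD, n = 6). *SMAD6* had 7.39 ± 2.37 CPM in WT and 42.1 ± 3.21 in *SNAI1*-KO.

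Genes known as targets of TGFβ were mostly lower, 12 of 17 tested against 1 higher (median -2.24, and -1.79 without WT-2). *TGFBI*, which encodes a secreted matrix protein, had 2402 to 2488 counts in WT and 0 to 4 in *SNAI1*-KO, and *IL11*, which encodes a cytokine, had 400 to 539 and 0 to 4. The gene that was higher was *CDKN2B*, which encodes the cell cycle inhibitor p15 and is one of the chromosome 9 genes at 0 counts in WT, at 235 to 326 counts in *SNAI1*-KO (at least 74.9-fold higher).

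**Figure D5:**
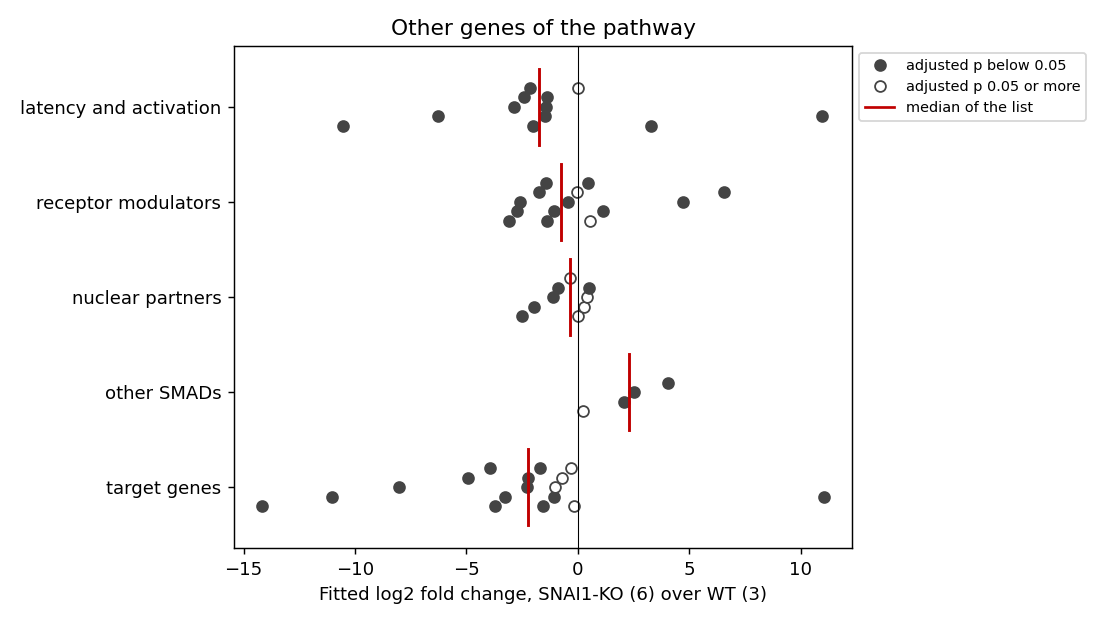
Fitted log2 fold change of *SNAI1*-KO (6 libraries) over WT (3 libraries) for the 56 tested genes of 5 pathway lists; filled circles had an adjusted p below 0.05, and the red line is the median of the list. Values of 8 or more in size include those of *THBS1*, *FBN2*, *TGFBI*, *IL11* and *CDKN2B*, and the list medians run from -2.24 for target genes to 2.29 for the other SMADs.

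Many genes followed the 3 members with the smallest adjusted p. By Pearson correlation of log2(CPM + 1) over the 9 libraries, the genes most like *TGFB2* were *PLK2* (0.9987), *MAFF* (0.9986) and *ITGB1* (0.9985), those most like *TGFBR2* were *MICAL2* (0.9990), *DPYSL2* (0.9990) and *TRIM47* (0.9985), and those most like *SMAD3* were *AHNAK* (0.9993), *FLG* (0.9991) and *APBB1IP* (0.9989). Of 19588 genes, 565, 433 and 563 had a correlation above 0.99 with *TGFB2*, *TGFBR2* and *SMAD3*. The 9 libraries fall into WT and *SNAI1*-KO, so that any gene with a large difference between them correlates with these members.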

How the data were processed

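RNA was measured in 9 libraries of cells described as MDA-MB-231, 3 each labelled WT, CS16 and CS19. The authors made ribosome-depleted stranded libraries, trimmed read pairs with Trimmomatic 0.36, aligned them to GRCh38.p13 with STAR 2.7.2b and deposited raw counts of pairs per gene from featureCounts 2.0.0, without using strand. Pairs lying over exons of several genes were not counted, which lowers genes that overlap. The exon lengths used for levels per kilobase were also deposited.

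Genes passing filterByExpr were normalized by TMM and tested with edgeR 4.0.16 (quasi-likelihood, Benjamini-Hochberg adjustment over all genes tested) in R 4.3.3. Fits compared both clones, and each clone, with WT, and CS16 with CS19. The fit of both clones took their 6 libraries as separate samples. Its SE and p-values thus mix the spread between clones with that between libraries and do not measure replication of the knockout. CPM were TMM-normalized over all 9 libraries. The floor, 3 counts of a library's total, corresponded to 0.105 to 0.154 CPM and covers counting error only. Without molecular identifiers, amplification copies remain. The labels do not say whether replicates were separate cultures, so p-values measure the spread between libraries. SE values come from the fold change and its F statistic. Share of G and C came from GRCh38 with pysam 0.24.0. The fits were tested on simulated counts.

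The members and lists were chosen with earlier results of these data known. Named were all members and, per list and direction, up to 3 genes with the smallest adjusted p, of which 1 is not reported here; *SNAI1*, *CDKN2A*, *CDKN2B* and *MTAP*; and the 3 genes most alike to the 3 members with the smallest adjusted p. *HNRNPUL1* and the other genes that overlap members were named for their position, and *SMAD5* as the remaining gene of its list. Alternatives were DESeq2 1.42.0, RLE normalization, no filter, at least 10 counts in 3 libraries, each library left out, one fit for all 3 groups, a block for the replicate number and, chosen after seeing the data, canonical transcript lengths.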

Additional observations from a re-analysis of the deposited data

Results flagged for a closer look

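The clones CS16 and CS19, which carry the same label of a *SNAI1* knockout, differed from each other in 13 of 35 genes examined. This was by edgeR's quasi-likelihood test of the difference itself. The 35 were the 10 ligands, receptors and SMADs, the pathway genes named for their adjusted p, *SNAI1*, *CDKN2A* and *MTAP*. *SMAD5* was not among them and was higher in CS16 than in CS19 (log2 fold change 0.53, adjusted p = 0.0003 by the same test). Of all 17538 genes tested, 12.7% were lower and 14.7% higher in CS16 than in CS19, and in a fit shared by the 3 groups only 336 were lower and 318 higher. *SNAI1* itself had a log2 fold change of -0.92 (SE 0.24, adjusted p = 0.0106), with 1.71 ± 0.379 CPM (SD, n = 3) for CS16 against 3.25 ± 0.758 CPM (SD, n = 3) for CS19. Among the 10 ligands, receptors and SMADs the log2 fold changes of CS16 against CS19 were -1.07 for *TGFB1*, -0.65 for *TGFBR2*, 0.36 for *TGFBR3* and -0.30 for *SMAD7*. Among the other pathway genes they were -1.24 for *THBS1*, -0.55 for *FBN1*, 0.69 for *FBN2*, 0.53 for *CD109*, -0.52 for *LDLRAD4*, 0.34 for *STRAP*, -0.27 for *SKIL* and 0.29 for *SMAD9*. The largest of these between the clones, *THBS1*, was at 1.09 ± 0.254 CPM in the CS16 libraries and at 2.57 ± 0.261 CPM in those of CS19 (SD, n = 3), both far below the 2765 CPM of WT. No library stood apart by Dixon's criterion in any of the 35 genes examined in the 6 *SNAI1*-KO libraries. That check pooled both clones, so a difference between them widens the range and can hide a library apart within a clone. WT libraries were not checked in this way.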

How the results depend on the processing

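In *SNAI1*-KO against WT, 6 members were lower and 1 higher; DESeq2 found 5 lower and 1 higher and gave no adjusted p for *TGFB1*. Leaving out libraries gave 5 to 7 lower and 0 to 1 higher, with 0 higher without WT-1. In CS16 against WT, 0 members were higher, but 1 with DESeq2, 1 without a filter and 2 in the shared fit of 3 groups, and 0 to 2 when a library was left out. In CS19 against WT, the 5 lower members became 3 to 6 and the 1 higher became 0 to 2 when a library was left out. The shared fit found 0 lower and 0 higher members between CS16 and CS19; it pools the spread of WT, which WT-2 widens. No log2 fold change of a member that had passed the test changed sign. With canonical transcript lengths, 15 of 24 means of ratios, shares and sums moved by more than 1 SD.

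Replicate numbers did not pair the libraries, since deviations of libraries with the same number correlated between -0.386 and 0.331. With the replicate number as a block, 6 members were lower and 1 higher in *SNAI1*-KO against WT, beside 5919 lower and 5920 higher genes in all. *TGFBR1* then had an adjusted p of 0.0649 in CS16 and 0.0516 in CS19 against WT, and *SMAD7* of 0.0882 between the clones. Genes at or under the floor of 3 counts, such as *NOX4* in all groups, cannot show a fall at this depth.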
